A study of Anas platyrhynchos with 16 samples.

Results

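The genes described here are opsins, the light-sensing receptors that bind retinal, together with genes known from retinal disease, in the hypothalamus and pituitary of ducks. They were chosen by gene symbol: OPN3, OPN4, OPN5, RRH, RGR, CERKL and MYO7A. Of these 7 symbols, 6 had an entry among the 24263 genes measured, and OPN5 had none under that symbol. The choice was made with earlier results of these data known, because CERKL and MYO7A stood higher in the hypothalamus of caged birds. That housing difference in hypothalamus is therefore given below as values, without a test.

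Total RNA was sequenced from 16 samples of Shanma ducks (Anas platyrhynchos) aged 113 days, 4 libraries for each tissue and housing. Caged birds, 15 ducks in 3 cages, had been moved there at 110 days of age, 3 days before, and had 16 h of light a day. Floor-water birds, 15 ducks, remained on floor with water access under natural light, so housing and lighting differed together. The groups are caged pituitary, floor-water pituitary, caged hypothalamus and floor-water hypothalamus, and all birds received the same commercial feed. The labels do not say which cage a library came from or whether each library is a separate bird.

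Birds read day length largely with photoreceptors inside the brain. An opsin holds retinal, a vitamin A derivative, and light changes the shape of that retinal and switches on a G protein. In quail and chicken, neurons of the hypothalamus that carry vertebrate ancient opsin or opsin-5 are known as deep-brain photoreceptors. Their signal reaches the pars tuberalis of the pituitary and leads to release of the gonadotropins. OPN3 encodes opsin-3, also called encephalopsin, an opsin first found in brain. OPN4 encodes melanopsin, the photopigment of retinal ganglion cells that set the daily clock. RRH encodes peropsin and RGR a related receptor, both known from the pigment epithelium of the eye, where RGR turns all-trans-retinal back into the form that opsins use. CERKL encodes a ceramide kinase-like protein and MYO7A the motor protein myosin VIIa, and inherited loss of either causes retinal degeneration in humans. Neither of these last genes encodes a protein that binds retinal, so they belong to the group by disease and not by chemistry.

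Levels are FPKM, fragments normalised to transcript length and to sequencing depth, and so can be compared between genes. Tests are the quasi-likelihood test of edgeR on counts, with Benjamini-Hochberg adjustment over all genes that passed its filter on low counts and a threshold of 0.05. Fold changes are on the log2 scale with a standard error. Total counts were 38853215 to 67175356 per library. Marker genes of the other tissue were present in both tissues: markers of the pituitary reached 21.6% of their mean pituitary level in caged hypothalamus library 4, and neuronal markers reached 14.6% of their mean hypothalamic level in floor-water pituitary library 2. Caged hypothalamus library 2 held 20500 FPKM of TTR, the main transcript of choroid plexus, against 8.61 to 662 FPKM in the other caged libraries and 17.3 to 110.0 FPKM in floor-water libraries. These, with caged pituitary library 2 and floor-water pituitary library 4, are the 5 libraries called apart below.

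Among the members, MYO7A was the most abundant in both tissues, and OPN4 and RGR were the least. MYO7A averaged 11.3 ± 3.91 FPKM in pituitary and 3.96 ± 1.18 FPKM in hypothalamus (SD, n = 8 each). That placed it at the 76.6th percentile of genes with signal in pituitary and the 57.0th percentile in hypothalamus. CERKL averaged 1.97 ± 0.512 FPKM in pituitary and 0.283 ± 0.237 FPKM in hypothalamus. OPN3 averaged 0.719 ± 0.295 FPKM in pituitary and 0.763 ± 0.396 FPKM in hypothalamus, and RRH 0.221 ± 0.0781 FPKM in pituitary and 0.275 ± 0.0675 FPKM in hypothalamus. OPN3 stood at the 39.4th percentile in pituitary and the 39.0th in hypothalamus, and the median gene with signal had 1.94 FPKM in pituitary and 2.32 FPKM in hypothalamus. OPN4 averaged 0.00640 ± 0.00883 FPKM in pituitary and 0.0939 ± 0.108 FPKM in hypothalamus. RGR averaged 0.0424 ± 0.0419 FPKM in pituitary and 0.0413 ± 0.0687 FPKM in hypothalamus.

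**Figure D1:**
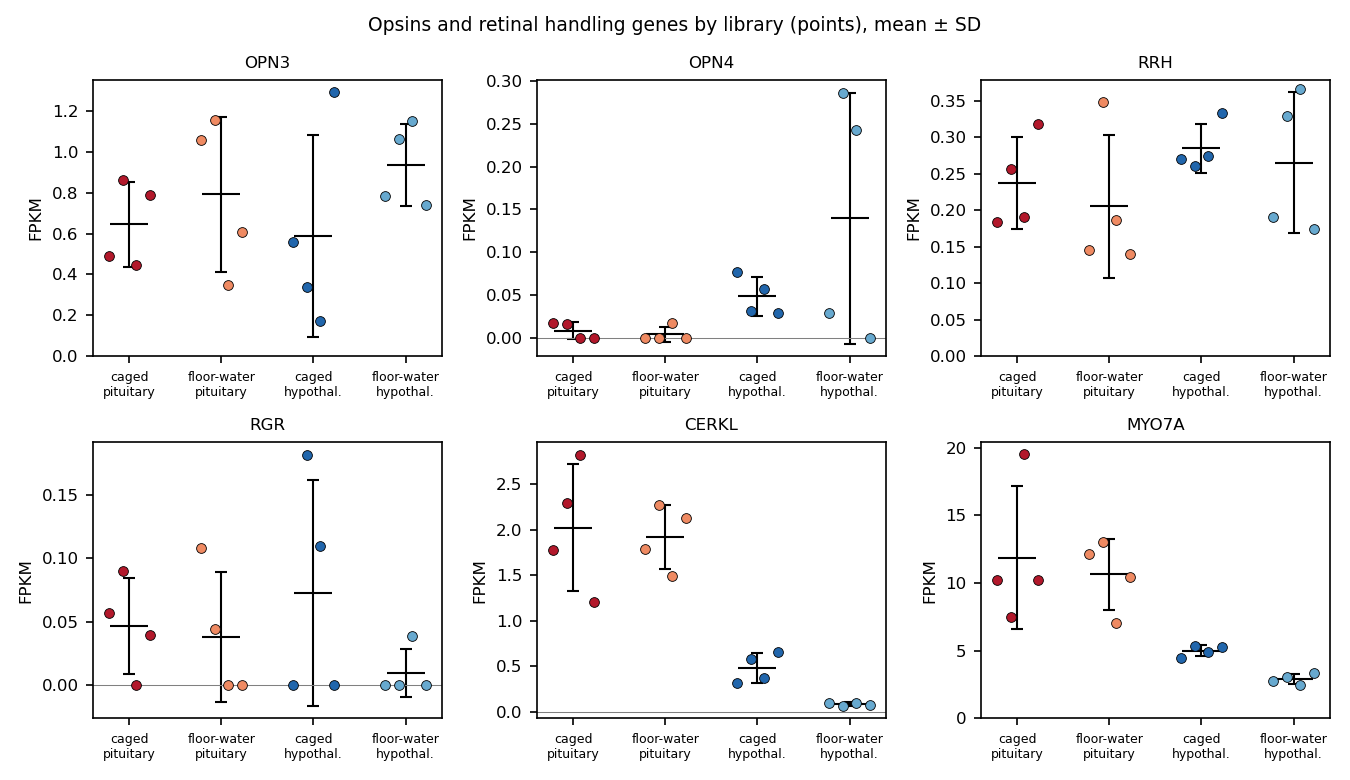
FPKM of the 6 genes in each library (points), with mean and SD (bars), for caged pituitary, floor-water pituitary, caged hypothalamus and floor-water hypothalamus, 4 libraries each. CERKL and MYO7A form separate levels by tissue and, in hypothalamus, by housing, while OPN3 and RRH overlap across all groups.

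Between tissues, the 2 retinal disease genes differed past the threshold. CERKL was 11.5-fold higher in pituitary than in hypothalamus, and MYO7A was 3.50-fold higher. OPN3, RRH and RGR showed no difference past the threshold, and OPN4 is given as values without a test, as described below. Of all 17010 genes tested, 66.5% passed the threshold between these tissues, 34.1% higher and 32.5% lower in pituitary, so nothing is read from 2 of 6 members being higher. In bulk tissue, fewer cells of a type and less RNA per cell cannot be told apart.

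CERKL was listed at 1.78, 2.30, 2.82 and 1.20 FPKM in caged pituitary libraries and at 1.80, 2.27, 1.49 and 2.13 FPKM in floor-water pituitary libraries. It was at 0.315, 0.580, 0.367 and 0.658 FPKM in caged hypothalamus libraries and at 0.102, 0.0679, 0.102 and 0.0703 FPKM in floor-water hypothalamus libraries. Every pituitary library thus stood above every hypothalamus library, as was the case for 17.5% of all genes tested. The log2 fold change of pituitary over hypothalamus was 3.52 ± 0.22 (SE), with an adjusted p of 2.86e-09. Within floor-water libraries it was 4.67 and within caged libraries 2.40. CERKL was chosen for its housing difference in hypothalamus, which enters both of these values, so they are given without a test. The comparison over 16 libraries weighs both housings equally. The 2 pituitary groups overlapped, whereas the other neighbours in the order of group means, floor-water pituitary over caged hypothalamus and caged over floor-water hypothalamus, did not.

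MYO7A had 10.2, 7.52, 19.5 and 10.2 FPKM in caged pituitary, and 12.1, 13.01, 7.05 and 10.4 FPKM in floor-water pituitary. In hypothalamus it had 4.46, 5.38, 4.90 and 5.30 FPKM in caged libraries, and 2.75, 3.07, 2.50 and 3.34 FPKM in floor-water libraries. Its groups stood in the same order as those of CERKL, with the pituitary groups overlapping and the others apart. The log2 fold change of pituitary over hypothalamus was 1.81 ± 0.16 with an adjusted p of 8.20e-08. It was 2.06 within floor-water libraries and 1.58 within caged libraries, given without a test for the same reason as for CERKL.

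OPN4 was at or near the lowest values that were listed. It had 0.0174 and 0.0166 FPKM in caged pituitary libraries 1 and 2, and 0.0172 FPKM in floor-water pituitary library 3, and was listed at 0 in the other 5 pituitary libraries. In hypothalamus it had 0.0765, 0.0314, 0.0575 and 0.0285 FPKM in caged libraries, and 0.0286, 0.286, 0.242 and 0 FPKM in floor-water libraries. The floor-water hypothalamus libraries 2 and 3, with 94 and 98 counts, stood far above all others. OPN4 passed the filter only through hypothalamus libraries, which set the direction of its difference between tissues, so no test of that difference is given. OPN4 lies across another gene, WAPL, on the opposite strand, and whether strand was used in counting is not known, so some of its reads may belong to WAPL.

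OPN3 and RRH, the members among the opsins with reads in every library, did not pass the threshold between tissues. OPN3 had 0.490, 0.862, 0.445 and 0.788 FPKM in caged pituitary and 1.06, 1.16, 0.348 and 0.606 FPKM in floor-water pituitary. It had 0.559, 0.337, 0.173 and 1.29 FPKM in caged hypothalamus and 0.787, 1.07, 1.15 and 0.741 FPKM in floor-water hypothalamus. All neighbouring groups overlapped, the highest and the lowest library both being caged hypothalamus. The log2 fold change of pituitary over hypothalamus was 0.18 ± 0.35 (adjusted p 0.668).

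RRH had 0.183, 0.256, 0.191 and 0.318 FPKM in caged pituitary and 0.145, 0.349, 0.187 and 0.140 FPKM in floor-water pituitary. In hypothalamus it had 0.270, 0.261, 0.274 and 0.333 FPKM in caged libraries and 0.191, 0.329, 0.365 and 0.174 FPKM in floor-water libraries. The groups overlapped throughout, and the log2 fold change between tissues was -0.05 ± 0.27 (adjusted p 0.868). RGR was listed at 0 in 3 pituitary and 5 hypothalamus libraries. It peaked at 0.182 FPKM, 32 counts, in caged hypothalamus library 2, and passed the filter only when both tissues were pooled (log2 fold change 0.79 ± 1.26, adjusted p 0.596).

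**Figure D2:**
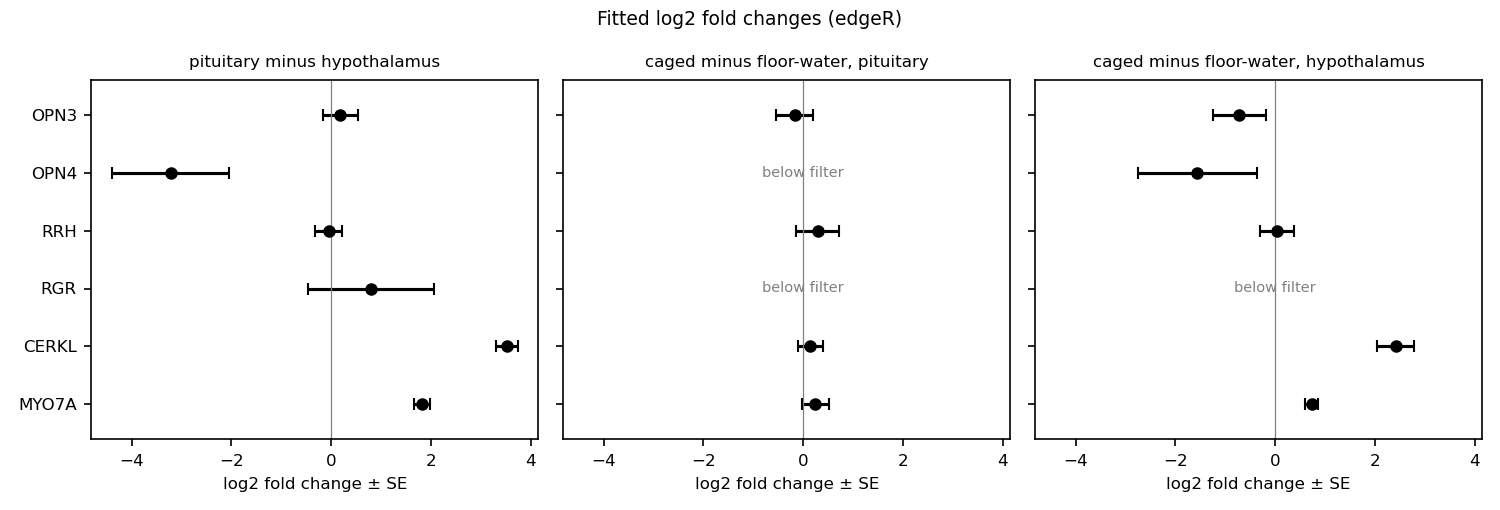
Fitted log2 fold changes ± SE of the 6 genes for pituitary minus hypothalamus (8 against 8 libraries) and for caged minus floor-water birds in pituitary and in hypothalamus (4 against 4 each). CERKL and MYO7A lie to the right in the tissue comparison and in hypothalamus, and within 1 SE of 0 in the pituitary comparison between housings. The hypothalamus panel is a description, since the genes were chosen on that contrast.

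In pituitary, caged and floor-water birds did not differ past the threshold in any member. Of the 15582 genes tested there, 0.0% passed after adjustment, 670 had an unadjusted p under 0.05 (4.30%), and DESeq2 called 38. The 4 members that passed the filter all had an adjusted p of 0.9996 by edgeR. CERKL averaged 2.03 ± 0.695 FPKM in caged and 1.92 ± 0.350 in floor-water pituitary (SD, n = 4 each), a log2 fold change of 0.14 ± 0.25. MYO7A averaged 11.9 ± 5.27 FPKM in caged and 10.7 ± 2.63 in floor-water pituitary, a log2 fold change of 0.24 ± 0.27. Caged pituitary library 3 was the highest for both genes, and without it the fold changes of CERKL and MYO7A were -0.04 and -0.08. The log2 fold change was -0.17 ± 0.37 for OPN3 and 0.29 ± 0.43 for RRH, while OPN4 and RGR did not pass the filter.

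In hypothalamus, the values that led to the choice of CERKL and MYO7A were as follows. CERKL averaged 0.480 ± 0.165 FPKM in caged and 0.0855 ± 0.0190 in floor-water hypothalamus (SD, n = 4 each), a log2 fold change of 2.42 ± 0.37. In counts, CERKL had 97, 191, 133 and 160 in caged libraries, against 25, 21, 38 and 26 in floor-water libraries. MYO7A averaged 5.01 ± 0.421 FPKM in caged and 2.91 ± 0.369 in floor-water hypothalamus, a log2 fold change of 0.73 ± 0.13. For these 2 genes no caged library overlapped a floor-water library. The same held, with caged libraries higher, for 3.56% of the 15736 genes tested, while 0.0% passed the threshold after adjustment, 1463 had an unadjusted p under 0.05 (9.30%, of which 5.65% higher and 3.65% lower in caged birds as shares of all genes tested), and DESeq2 called 242. Since the choice used this contrast, nothing is read from the members' count. Whether the housing difference of CERKL or MYO7A itself differed between hypothalamus and pituitary was not tested.

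The other members did not separate by housing in hypothalamus. OPN3 averaged 0.590 ± 0.494 FPKM in caged and 0.936 ± 0.203 in floor-water hypothalamus, and 3 of the 4 caged libraries lay below every floor-water library while caged library 4 lay above all. OPN4 averaged 0.0485 ± 0.0228 FPKM in caged and 0.139 ± 0.146 in floor-water hypothalamus, with log2 fold changes of -0.72 ± 0.53 for OPN3 and -1.56 ± 1.19 for OPN4. RRH averaged 0.285 ± 0.0331 FPKM in caged and 0.265 ± 0.0964 in floor-water hypothalamus, a log2 fold change of 0.04 ± 0.34. RGR had signal in caged libraries 2 and 3, at 0.182 and 0.110 FPKM, and in floor-water library 3, at 0.0386 FPKM. The authors' deposited table gives RGR a fold of 7.51 for caged over floor-water hypothalamus, which rests on these 3 libraries.

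Since CERKL and MYO7A were higher in pituitary, their hypothalamic levels are given beside those of pituitary markers. Over the 14 of 16 measured pituitary genes that were higher in pituitary, among them the hormones GH1 and PRL, the median level was 4.08%, 0.104%, 6.24% and 21.6% of the pituitary mean in caged hypothalamus libraries 1 to 4. In floor-water hypothalamus libraries 1 to 4 it was 1.46%, 0.0606%, 0.275% and 0.404%. CERKL stood at 16.0%, 29.4%, 18.6% and 33.4% of its pituitary mean in the caged libraries, against 5.18%, 3.44%, 5.15% and 3.56% in the floor-water libraries. MYO7A stood at 39.6%, 47.8%, 43.5% and 47.1% in the caged libraries, against 24.4%, 27.2%, 22.2% and 29.7% in the floor-water libraries. In caged library 2, pituitary markers were lower than in 3 of the 4 floor-water libraries, and CERKL was at 0.580 FPKM and MYO7A at 5.38 FPKM. That library also held 20500 FPKM of TTR, the main transcript of choroid plexus. In all 8 hypothalamus libraries, caged and floor-water, the share of CERKL was above the median share of the markers. The part of pituitary or choroid plexus RNA in the levels of CERKL and MYO7A was not tested.

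**Figure D3:**
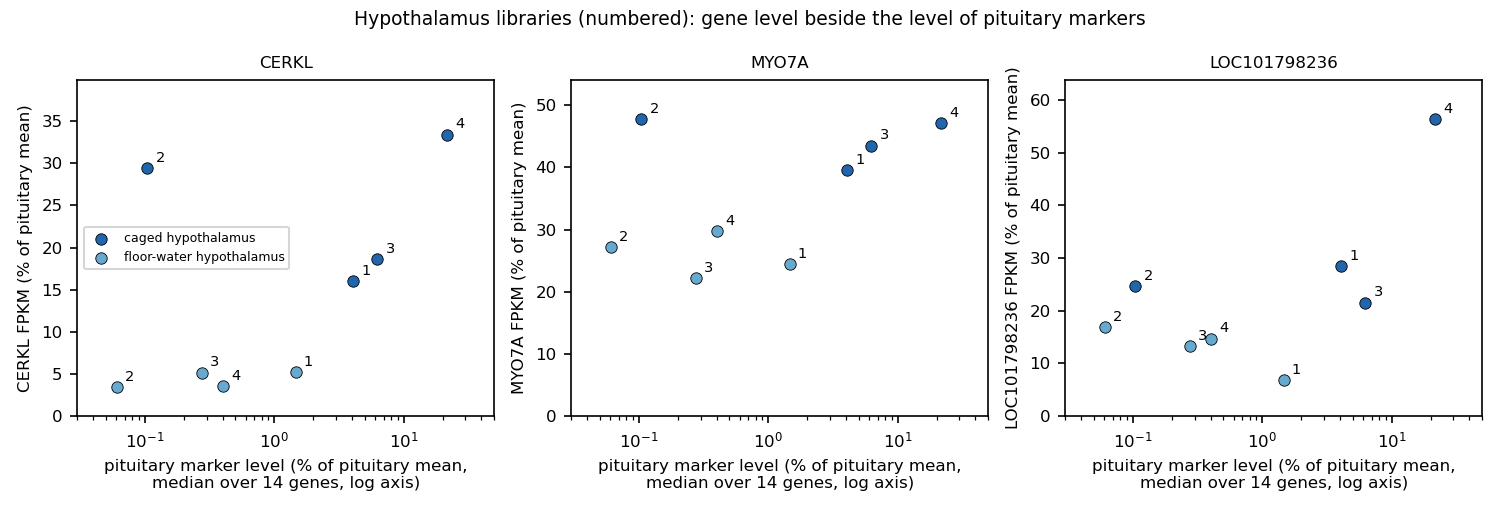
FPKM of CERKL, MYO7A and the pinopsin-like gene LOC101798236 in the 8 hypothalamus libraries (numbered), as a percent of the gene's mean in pituitary, against the median level of 14 pituitary marker genes on the same scale (log axis). Caged libraries 1, 3 and 4 lie to the right with 4.08% to 21.6% of the marker level. Caged library 2, which held 20500 FPKM of TTR, lies at 0.104% with CERKL at 29.4% and MYO7A at 47.8%.

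Fitted fold changes of several lists of cell type markers also leaned to caged birds in hypothalamus, while summed levels overlapped between housings in some of them. All 16 measured pituitary markers had a fitted fold change above 0, with summed levels of 579 to 39980 FPKM in caged and 664 to 3037 FPKM in floor-water libraries. All 13 ependymal markers tested were above 0, with a median log2 fold change of 1.07 against 0.00 over all genes. Their summed level was 39.5 to 69.6 FPKM in caged and 17.1 to 43.7 FPKM in floor-water libraries, with MCIDAS listed at 0 throughout. FOXJ1, the regulator of motile cilia that marks ependymal cells, had 6.63, 7.10, 6.12 and 1.98 FPKM in caged and 2.59, 2.30, 1.06 and 0.839 in floor-water libraries. Of 12 meningeal and fibroblast markers tested 11 were above 0, with summed levels of 53.1 to 91.1 FPKM in caged and 32.4 to 48.0 FPKM in floor-water libraries. These 2 lists are not particular to hypothalamus. Between tissues, 9 of 12 meningeal and 5 of 13 ependymal markers were higher in pituitary, and 2 of each were lower. In pituitary, meningeal markers summed to 204 to 306 FPKM in caged and 121 to 378 FPKM in floor-water libraries. Ependymal markers summed to 48.8 to 69.0 FPKM and 50.6 to 79.4 FPKM there. The part of pituitary RNA in these lists was not tested. Choroid plexus markers summed to 18.4 to 20550 FPKM in caged and 27.0 to 124 FPKM in floor-water libraries, and neuronal markers to 2147 to 2728 FPKM in caged and 2812 to 3091 FPKM in floor-water libraries. Pigment epithelium markers had a median log2 fold change of 1.27, with 6 of 9 tested above 0. Microglia and leukocyte markers had one of 0.19, and photoreceptor and pineal markers one of -0.01, with PDE6G and PRPH2 at 0 in every library of both groups. The lists share genes, so their leans are not separate observations. The pigment epithelium markers RPE65, RLBP1, LRAT, TTR and STRA6, all above 0, are also in the retinoid list below. TTR and OTX2 are also choroid plexus markers, and the retinoid gene ALDH1A2 is also a meningeal marker. By edgeR no marker passed the threshold after adjustment. An unadjusted p under 0.05 was found for 11 of 16 pituitary and 9 of 13 ependymal markers, all higher in caged birds. Of all genes tested, 5.65% had such a p and were higher in caged birds. Without the 2 hypothalamus libraries apart, caged 2 and 4, the log2 fold change of CERKL was 1.91 and that of MYO7A 0.61. The medians were then 1.15 for ependymal markers, against 1.07 with all libraries, and 2.86 against 3.52 for pituitary markers. They were 0.71 against 0.88 for meningeal and fibroblast, 0.18 against 0.69 for choroid plexus and 1.07 against 1.27 for pigment epithelium markers. Neuronal markers had a median of -0.13 against -0.14, and photoreceptor and pineal markers one of -0.05 against -0.01. All 16 pituitary markers stayed above 0, and caged libraries 1 and 3, which remained, held them at 4.08% and 6.24% of the pituitary mean. The part of these cell types in the levels of CERKL and MYO7A was not tested.

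The symbol-based choice left out most opsin genes of the duck, because the deposited table lists them by locus number. By their deposited descriptions, 11 further genes with a locus number were opsins. They were picked by the text of the description alone and include 4 genes described as opsin-5, an opsin-5-like gene, a vertebrate ancient opsin and a second melanopsin entry. Opsin-5 is a violet- and ultraviolet-sensitive opsin, and the vertebrate ancient opsin a green-sensitive opsin of the avian hypothalamus. Of these 11 genes 8 were tested between tissues, 5 were lower in pituitary and 1 was higher, beside 32.5% of all genes lower and 34.1% higher. The other 3 were too low to test. LOC101799218 (violet-sensitive opsin-like) was listed at 0 in all libraries, the second pinopsin gene LOC101791202 in all except caged hypothalamus library 2, and LOC101791298 (green-sensitive opsin) in all except caged hypothalamus libraries 1 and 2. Of the 5 genes lower in pituitary, 4 passed the filter only through hypothalamus libraries, so their direction was set by the filter, no test is given for them and nothing is read from the count. Reads may be split between near-identical opsin genes, so that single genes are uncertain.

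**Figure D4:**
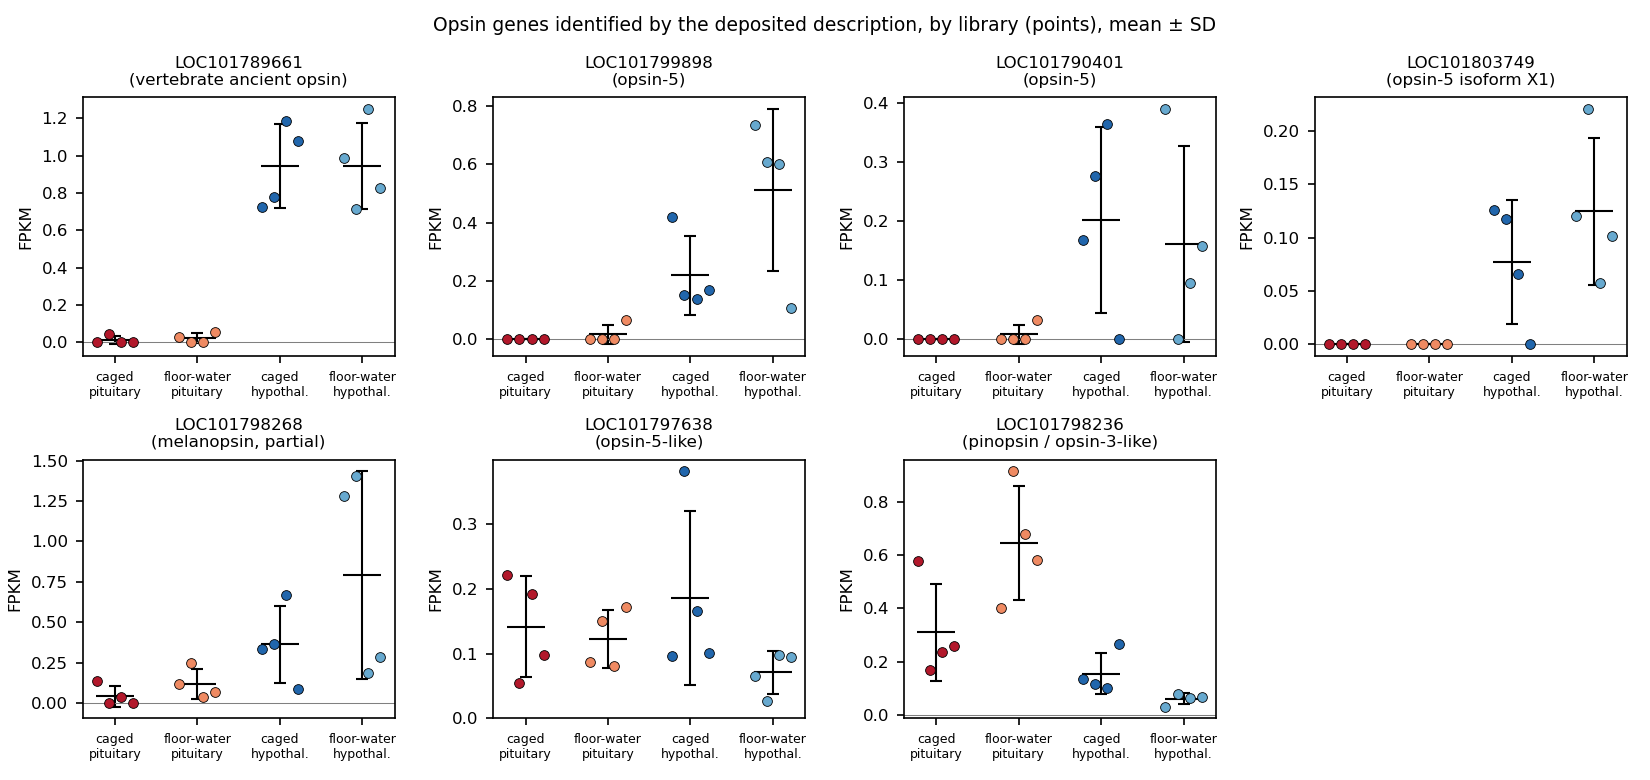
FPKM of 7 opsin genes identified by their deposited description, in each library (points), with mean and SD (bars), for caged pituitary, floor-water pituitary, caged hypothalamus and floor-water hypothalamus. Vertebrate ancient opsin (LOC101789661) and 3 opsin-5 genes are at or near 0 in pituitary, and the pinopsin-like LOC101798236 is highest in floor-water pituitary.

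Vertebrate ancient opsin, LOC101789661, had the highest mean FPKM of the opsins in hypothalamus, 0.945 ± 0.211 against 0.763 ± 0.396 for OPN3. In floor-water hypothalamus the means were close, at 0.946 and 0.936 FPKM. OPN3 was the higher of both in caged library 4 and in floor-water library 2. In pituitary LOC101789661 had 0.0436 FPKM in caged library 2, and 0.0298 and 0.0555 FPKM in floor-water libraries 1 and 4, and was listed at 0 in the other 5. In hypothalamus it had 0.727, 0.781, 1.19 and 1.08 FPKM in caged and 0.987, 0.716, 1.25 and 0.830 in floor-water libraries. Neuronal markers in those 3 pituitary libraries were at 5.70%, 2.24% and 6.06% of their hypothalamic mean. The highest neuronal share, 14.6%, was in floor-water pituitary library 2, where the gene was listed at 0, and the part of neuronal RNA in these values was not tested. Between housings in hypothalamus it averaged 0.944 ± 0.225 FPKM in caged and 0.946 ± 0.231 in floor-water libraries, with a log2 fold change of -0.05 ± 0.25 (adjusted p 0.968).

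Of the 4 opsin-5 genes, 3 were also at or near 0 in pituitary, with lower levels in hypothalamus than vertebrate ancient opsin. LOC101799898 was above 0 in a single pituitary library, floor-water library 4, at 0.0672 FPKM. In hypothalamus it had 0.419, 0.151, 0.137 and 0.170 FPKM in caged and 0.733, 0.606, 0.599 and 0.107 in floor-water libraries. LOC101803749 was listed at 0 in all 8 pituitary libraries, and had 0.126, 0.118, 0.0663 and 0 FPKM in caged and 0.120, 0.221, 0.0575 and 0.102 in floor-water hypothalamus. With 3 counts assumed in each pituitary library, its mean CPM would be 17.8-fold higher in hypothalamus. Zeros may stand for other counts, and the gene passed the filter only through hypothalamus libraries, so nothing is read from its direction. LOC101790401 was at 0 in 7 of 8 pituitary libraries and averaged 0.181 ± 0.151 FPKM in hypothalamus. The fourth, LOC101798873, was detected mainly in pituitary, averaging 0.0261 ± 0.0187 FPKM there and 0.00788 ± 0.0128 FPKM in hypothalamus, and passed the filter only through pituitary libraries.

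LOC101798268, the second melanopsin entry, was listed well above OPN4. It averaged 0.0813 ± 0.0844 FPKM in pituitary and 0.577 ± 0.504 FPKM in hypothalamus, a log2 fold change of -2.63 ± 0.79 (adjusted p 0.00833). The hypothalamus libraries had 0.335, 0.364, 0.668 and 0.0849 FPKM in caged and 1.28, 1.41, 0.185 and 0.288 in floor-water birds. The call did not pass within caged libraries alone (adjusted p 0.118). Floor-water hypothalamus library 2 was high for both melanopsin entries, while library 1 was high for LOC101798268 and library 3 for OPN4.

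The pinopsin-like LOC101798236 went the other way between tissues. Pinopsin is the blue-sensitive opsin of the avian pineal gland, and the deposited description also names opsin-3-like for this gene. It had 0.576, 0.169, 0.238 and 0.260 FPKM in caged and 0.403, 0.914, 0.679 and 0.582 in floor-water pituitary, and 0.136, 0.117, 0.103 and 0.269 FPKM in caged and 0.0325, 0.0809, 0.0629 and 0.0702 in floor-water hypothalamus. The log2 fold change of pituitary over hypothalamus was 2.44 ± 0.33 (adjusted p 9.22e-06). Within caged libraries alone it was 1.34 and missed the threshold (adjusted p 0.0525). The gene spans ST6GAL2 and LOC110351483 on the opposite strand, so reads from these may be included.

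No described opsin passed the threshold between housings, with 7 tested in hypothalamus and 4 in pituitary by edgeR. Of these, 2 in hypothalamus and 0 in pituitary had an unadjusted p under 0.05. The shares over all genes tested were 9.30% in hypothalamus and 4.30% in pituitary, and nothing is read from these counts. In hypothalamus, LOC101798236 was higher in all 4 caged than in all 4 floor-water libraries, as were 3.56% of the 15736 genes tested. Its log2 fold change was 1.26 ± 0.48, with an edgeR unadjusted p of 0.0264 and an adjusted p of 0.482. It stood at 28.4%, 24.6%, 21.5% and 56.3% of its pituitary mean in caged and 6.81%, 16.9%, 13.2% and 14.7% in floor-water hypothalamus. In pituitary the same gene had a log2 fold change of -0.97 ± 0.44 between caged and floor-water birds (unadjusted p 0.0523, adjusted p 0.9996). LOC101797638, the opsin-5-like gene, averaged 0.186 ± 0.134 FPKM in caged and 0.0708 ± 0.0332 in floor-water hypothalamus (log2 fold change 1.36 ± 0.59, unadjusted p 0.0467, adjusted p 0.531). LOC101799898 had a log2 fold change of -1.26 ± 0.63 (unadjusted p 0.0777, adjusted p 0.586).

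Genes that make, carry or turn over retinal were split between the tissues. Of 19 retinoid and visual cycle genes tested, 10 were higher and 5 lower in pituitary than in hypothalamus, with a median log2 fold change of 0.82 against 0.05 over all genes, of which 34.1% were higher and 32.5% lower. Of the 5 lower, 3 passed the filter only through hypothalamus libraries. Those higher included BCO2, which cleaves carotenoids, at 264.9 ± 56.8 FPKM in pituitary and 25.5 ± 20.3 FPKM in hypothalamus (log2 fold change 3.85 ± 0.23, adjusted p 1.78e-09). RDH10, which oxidises retinol to retinal, stood at 2.56 ± 0.18, and the retinol-binding protein receptor STRA6 at 4.95 ± 0.43. The enzymes that turn retinal into retinoic acid were also higher, ALDH1A1 at 4.86 ± 0.47, ALDH1A2 at 3.43 ± 0.33 and ALDH1A3 at 4.07 ± 0.50. Those lower in pituitary included RPE65, the isomerase that remakes 11-cis-retinal in the eye, at 0.0461 ± 0.101 FPKM in pituitary and 4.67 ± 3.70 FPKM in hypothalamus, and RBP3, an interphotoreceptor retinoid carrier, both among those 3. The other two were the retinoic acid-binding CRABP1 at -1.05 ± 0.29 and the retinol transport partner TTR at -6.00 ± 1.47. TTR was at -3.82 without caged hypothalamus library 2, the library with 20500 FPKM, and did not pass within floor-water libraries alone (adjusted p 0.106).

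**Figure D5:**
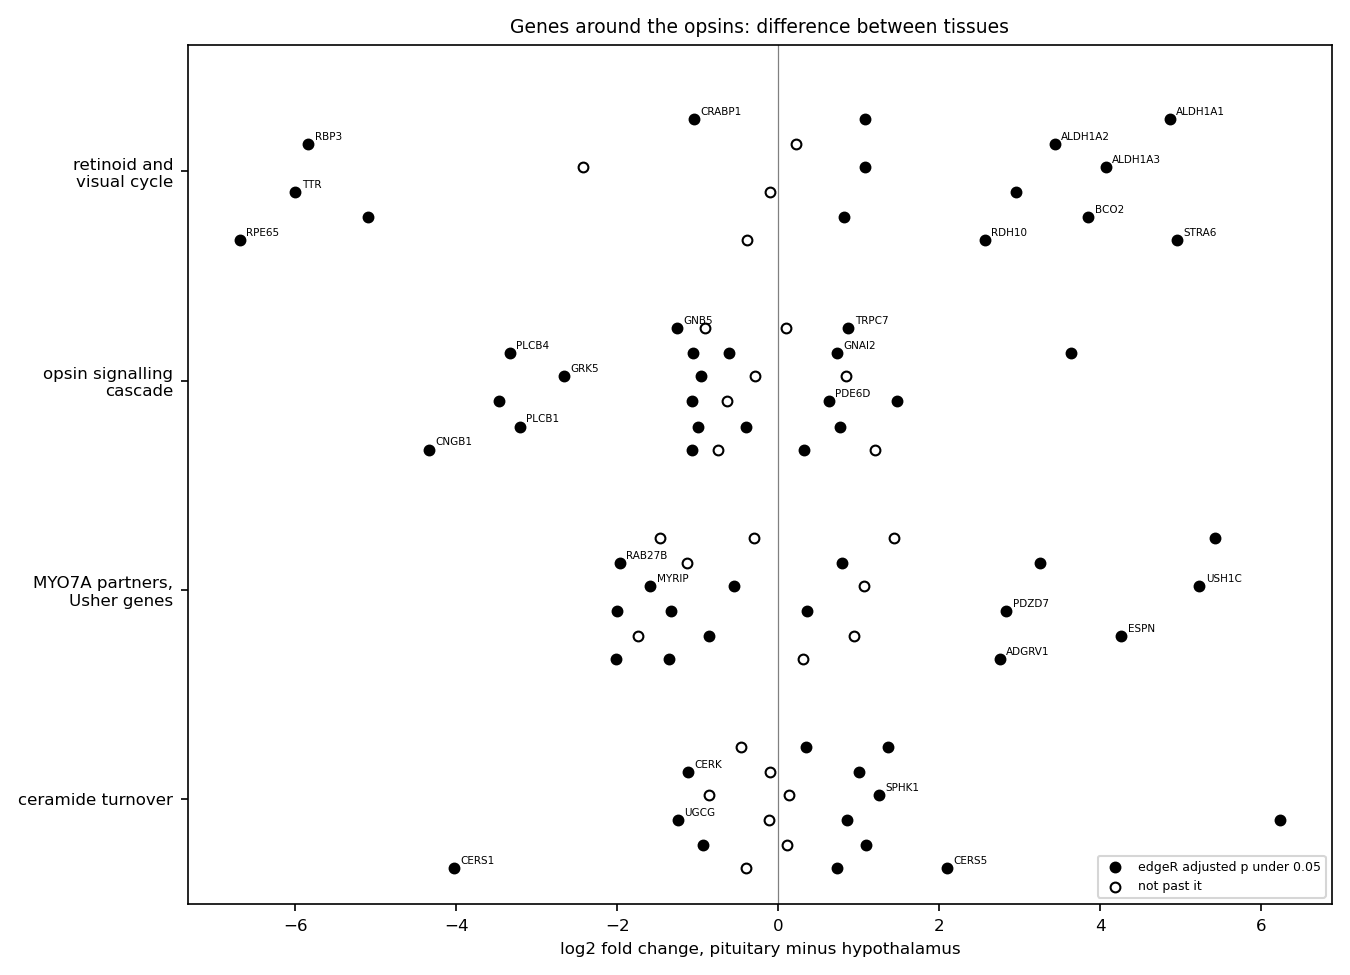
Log2 fold changes of pituitary over hypothalamus for genes in 4 lists around the opsins and the disease genes, 1 point per gene. Filled points passed the edgeR threshold, and vertical offsets within a list only separate the points, and labels mark genes named in the text. Retinoic acid enzymes lie at 3.43 to 4.86 and CNGB1 at -4.34.

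Between housings none of these retinoid genes passed the threshold by edgeR, yet their fold changes in hypothalamus leaned to the caged birds. There 17 of 19 were above 0, with a median log2 fold change of 0.81. Without the 2 libraries apart these were 16 of 20 and 0.37. Of the 19, 6 had an unadjusted p under 0.05 by edgeR, all higher, beside 5.65% of all genes tested. RPE65, RLBP1, LRAT, TTR, STRA6, RBP3, ABCA4 and ALDH1A2 are also in the marker lists above, so these leans are not separate observations. BCO2 averaged 38.5 ± 22.4 FPKM in caged and 12.4 ± 1.24 in floor-water hypothalamus (log2 fold change 1.58 ± 0.33, edgeR adjusted p 0.313). ALDH1A1 averaged 4.63 ± 4.67 FPKM in caged and 0.499 ± 0.244 in floor-water hypothalamus (log2 fold change 3.16 ± 0.76, adjusted p 0.361), and STRA6 2.27 ± 1.64 FPKM in caged and 0.435 ± 0.328 in floor-water hypothalamus (2.32 ± 0.65, adjusted p 0.381). DESeq2 called all 3, with adjusted p of 0.000490, 0.000691 and 0.0190. All 3 were higher in pituitary, and pituitary markers moved in the same direction as given above, their part being not tested. In pituitary, 5 of 15 were above 0, and ALDH1A2 had a log2 fold change of 0.87 ± 0.30 between caged and floor-water birds (unadjusted p 0.0174, adjusted p 0.9996).

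In the signalling cascade below the opsins, 13 of 27 tested genes were lower and 7 higher in pituitary (median log2 fold change -0.64), beside 32.5% of all genes lower and 34.1% higher. Of the 13 lower, 1 (GUCA1C) passed the filter only through hypothalamus libraries. Of the 7 higher, 1 (GUCA1B) passed it only through pituitary libraries. The phospholipases C through which melanopsin-type opsins signal were far lower, PLCB1 at -3.21 ± 0.17 and PLCB4 at -3.34 ± 0.20. So were the channel subunit CNGB1 at -4.34 ± 0.43 and the receptor kinase GRK5 at -2.66 ± 0.17. Those higher included the inhibitory G protein GNAI2 at 0.73 ± 0.11, the channel TRPC7 at 0.87 ± 0.19 and PDE6D, a carrier of prenylated photoreceptor proteins, at 0.63 ± 0.12. Without the 5 libraries apart the counts were 10 lower and 6 higher. Between housings none of 26 passed by edgeR in either tissue. An unadjusted p under 0.05 was found for 3 in hypothalamus and 1 in pituitary, all lower in caged birds. The shares over all genes tested were 9.3% in hypothalamus and 4.3% in pituitary, so nothing is read from these counts. In hypothalamus GNB5 had -0.32 ± 0.09 (unadjusted p 0.00710, adjusted p 0.386).

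Partners of MYO7A and other Usher syndrome genes went both ways between tissues. Of 24 tested, 8 were higher and 8 lower in pituitary, with a median log2 fold change of 0.01. Of all genes tested, 34.1% were higher and 32.5% lower, so nothing is read from these counts. Of the 8 higher, 1 (MYO15A) passed the filter only through pituitary libraries. The scaffold protein USH1C (harmonin) was at 17.1 ± 4.52 FPKM in pituitary and 0.905 ± 1.32 FPKM in hypothalamus (log2 fold change 5.23 ± 0.46, adjusted p 7.45e-08). The stereocilia actin bundler ESPN stood at 4.26 ± 0.44, PDZD7 at 2.83 ± 0.23 and the adhesion receptor ADGRV1 at 2.75 ± 0.37, all higher as MYO7A was. Lower were MYRIP and RAB27B, which link myosin VIIa to pigment granules or vesicles, at -1.59 ± 0.15 and -1.97 ± 0.26. Between housings in hypothalamus 0 of 23 passed by edgeR, and 6 had an unadjusted p under 0.05, 5 of them higher in caged birds. The share over all genes tested there was 9.3%, with 5.65% higher and 3.65% lower in caged birds. USH1C averaged 1.63 ± 1.63 FPKM in caged and 0.177 ± 0.130 in floor-water hypothalamus (log2 fold change 3.13 ± 0.77, edgeR adjusted p 0.361), and DESeq2 called it (adjusted p 0.00178). Without caged hypothalamus library 4, which had the most pituitary marker RNA, its log2 fold change was 2.17, and the part of that RNA was not tested. PDZD7 had 1.55 ± 0.43 in hypothalamus (adjusted p 0.381) and 0.89 ± 0.25 in pituitary (unadjusted p 0.00582, adjusted p 0.977).

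Among enzymes of ceramide turnover, 9 of 20 tested were higher and 4 lower in pituitary (median log2 fold change 0.12). Of all genes tested, 34.1% were higher and 32.5% lower. Of the 9 higher, 1 (ACER1) passed the filter only through pituitary libraries. CERK, the ceramide kinase to which CERKL is related, was lower in pituitary, at 4.23 ± 1.24 FPKM there and 10.97 ± 2.004 FPKM in hypothalamus (log2 fold change -1.12 ± 0.13, adjusted p 2.46e-06), opposite to CERKL. The ceramide synthase CERS1 was also lower, at -4.03 ± 0.38, as was UGCG, which adds glucose to ceramide, at -1.25 ± 0.15. The synthase CERS5 at 2.09 ± 0.22 and the sphingosine kinase SPHK1 at 1.25 ± 0.15 were higher. Between housings in hypothalamus, 0 of 19 passed by edgeR, and 2 had an unadjusted p under 0.05, 1 higher and 1 lower. The share over all genes tested there was 9.3%, so nothing is read from this count. CERK averaged 9.41 ± 1.57 FPKM in caged and 12.5 ± 0.652 in floor-water libraries without overlap, as did 2.09% of all genes tested with caged birds lower (log2 fold change -0.46 ± 0.12, unadjusted p 0.00427, adjusted p 0.375).

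For each member with a mean of at least 1 CPM, the genes most alike over the 16 libraries were found by Pearson r of log2(CPM + 1) among 10740 genes. These values describe a pattern that the difference between tissues shapes in part. For CERKL and MYO7A, the housing difference in hypothalamus on which they were chosen shapes it too. For CERKL they were EZR, JPT2 and COL4A3, with r of 0.986, 0.979 and 0.976. Within hypothalamus alone EZR had an r of 0.963 with CERKL, and within pituitary 0.415. The first value includes the housing difference on which CERKL was chosen, so nothing is read from it. For MYO7A they were P3H2, PER3 and GOLIM4, with r of 0.971, 0.969 and 0.967. For OPN3 they were LRRC32, KLHL42 and SH3BGRL, with r of 0.845, 0.793 and 0.761, and for RRH they included SMIM3 and COQ10B, with r of 0.695 and 0.691.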

How the data were processed

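Per the submitters' processing notes, cutadapt, HISAT2, StringTie 1.3.4d and DESeq2 were used, with no settings. Genome build, strandedness and the counting step are not given in the sources used here, so no positions are printed. The authors deposited whole-number counts and FPKM per gene, per the file headers, with genes without signal listed at 0.0001 FPKM (taken as 0 here). The authors' deposited comparison tables hold a fold (the ratio of mean FPKM, as the values show), its log2 value, a p-value and a q-value. Low counts were unevenly used (1 made up 0.271% and 4 made up 2.45% of counts above 0), so a gene listed at 0 may have had reads. No limit is given for zeros, and the 3 counts per library used in a fold above are an assumed value.

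Counts were tested with edgeR 4.0.16 (R 4.3.3; TMM, filterByExpr). Within each tissue 4 caged were compared with 4 floor-water libraries. Tissues were compared over 16 libraries with both housings weighted equally. Alternatives were DESeq2 1.42.0, its size factors in edgeR, limma 3.58.1 applied to log2 FPKM (pseudocount 1 or 0.1), no filter, all 16 libraries in 1 fit, a single housing, a block, each library left out, and 5 libraries left out. The scripts were tested on simulated data. CPM were computed from counts and TMM library sizes. Markers and pathway genes came from 13 lists. Genes named from them were those with the highest hypothalamic FPKM or the smallest p each way in a comparison, at most 3 of each; some of these are not reported here. Members and lists were chosen with earlier results of these data known.

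Libraries of a group differed beyond sampling noise (chi-square per degree of freedom 71.8 to 537), so no pair looked like 1 library deposited a second time. A repeat library of 1 bird would not be seen this way. The labels do not say that libraries are separate birds, so p-values measure only the spread between libraries, which may be technical, and no test took the cage into account.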

Additional observations from a re-analysis of the deposited data

Results flagged for a closer look

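In 46 sets of 4 library values, 6 had a value far from the other 3 by Dixon's test. Chance flags about 1 in 20 sets, a rate that does not hold for sets with ties at 0. In 5 of the 6 sets the other libraries were listed at 0, so that any value above 0 was flagged. These were OPN4 at 0.0172 FPKM in floor-water pituitary library 3, RGR at 0.0386 FPKM in floor-water hypothalamus library 3 and LOC101789661 (vertebrate ancient opsin) at 0.0436 FPKM in caged pituitary library 2. The other two were LOC101790401 at 0.0332 FPKM and LOC101799898 at 0.0672 FPKM, both opsin-5 genes in floor-water pituitary library 4. The last was LOC101799898 at 0.419 FPKM in caged hypothalamus library 1, against 0.137 to 0.170 FPKM in the other caged libraries.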

How the results depend on the processing

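The count of genes past the threshold between housings depended on the tool. In pituitary it was 0 by edgeR, 38 by DESeq2 and 3 with all 16 libraries in 1 fit, and 0 to 2 with each library left out (2 without floor-water pituitary library 3). In hypothalamus it was 0 by edgeR, 242 by DESeq2, 1 by limma on log2(FPKM + 0.1), 1 with all 16 libraries in 1 fit and 6 without caged libraries 2 and 4, and 0 to 1 with each library left out (1 without floor-water hypothalamus library 2). Between tissues the count was 11318, and 11028 to 11358 with each library left out.

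Scaling moved the split between tissues. Of the genes called, 51.2% were higher in pituitary by edgeR and 39.7% by limma on FPKM, and the median log2 fold change of all genes was 0.05 by edgeR, -0.07 with a pseudocount of 1 and -0.18 with one of 0.1. CERKL (1.21 and 2.64) and MYO7A (1.28 and 1.47) stayed above that shift with pseudocounts of 1 and 0.1. The housing difference of CERKL in hypothalamus, 2.42 in counts, was 0.44 and 1.61 on those scales, where a pseudocount shrinks the change of a low gene, and 2.24 to 2.58 with each library left out. That of MYO7A was 0.62 and 0.77, and 0.66 to 0.80 with each library left out. Both genes were chosen on this contrast, so nothing is read from how little these ranges moved.

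Fold changes that changed sign were all short of the threshold. Between tissues, OPN3 was -0.02 by limma with a pseudocount of 1 and -0.09 in floor-water libraries alone, while in caged libraries alone RRH was 0.09, RGR -0.27 and LOC101797638 -0.05. With each library left out, fold changes between housings in pituitary were -0.36 to 0.00 for OPN3, -0.04 to 0.31 for CERKL, -0.08 to 0.42 for MYO7A and -0.02 to 0.57 for LOC101797638. In hypothalamus they were -0.17 to 0.10 for LOC101789661 and -0.12 to 1.16 for LOC101790401, and between tissues -0.24 to 0.04 for RRH. The causes were not tested.

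The labels do not say that title numbers pair libraries, and not every same-numbered pair deviated together (r over 0.1). Their correlations ran from -0.105 to 0.230 between housings in pituitary and from -0.0132 to 0.155 in hypothalamus. Between tissues all were positive, 0.0913 to 0.191 in caged and 0.0231 to 0.202 in floor-water birds, and 7 of 8 caged and 6 of 8 floor-water libraries correlated best with their own number in the other tissue, a hint from the data and not from the design. Between housings 2 of 8 in pituitary and 3 of 8 in hypothalamus did. With the number as a replicate block, 0 genes passed between housings in either tissue and 11206 between tissues, and OPN4 in hypothalamus was -0.34 against -1.56 without the block. This block joined caged and floor-water libraries of the same number. A pairing of tissues within each housing, as hinted above, was not fitted. Low counts limit OPN4, RGR and most described opsins, where a few reads decide a value.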
